A study of Mus musculus with 6 samples.

Results

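H3K4me3 regions without H3K27ac in mouse pre-B cells were 3650 of the 17979 regions into which the H3K4me3 calls were joined. A region was a run of called 25 bp bins with gaps of up to 100 bp between them, and it was a member when it shared no base with any of the 69345 H3K27ac peaks. The members were chosen by the H3K27ac list itself, so their lack of H3K27ac and their distance to it are descriptions. The share without H3K27ac over all regions was 20.3%.

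The experiment was a ChIP-seq of the histone marks H3K27ac and H3K4me3 and of the B cell transcription factor Pax5, with 1 library and 1 input sample each. All libraries came from pre-B cells of C57BL/6 RAG-/- µ+ mice aged 6 to 14 weeks, of both sexes. These mice lack the recombinase that assembles antigen receptor genes and carry an already rearranged IgM transgene, so their B lineage cells reach the pre-B stage with a heavy chain that they did not assemble. The number of mice behind each library is not given in the labels, and the same genotype was used throughout, so there was no comparison between genotypes or treatments. With 1 library per list there was no replicate check, no test across samples was possible, and each number below describes these libraries. Library depth is unknown.

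H3K4me3 is a methylation of histone H3 that sits around transcription start sites, above all those rich in CpG dinucleotides. H3K27ac, an acetylation of the same histone tail, is found at promoters and enhancers in use. CpG-rich promoters of genes that a cell does not use, many of them developmental regulators, can carry H3K4me3 without acetylation and are often also covered by the Polycomb mark H3K27me3, which was not measured in this experiment.

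The pre-B label was checked against marker genes. All 9 pre-B markers had an H3K27ac peak within 1000 bp of a start, 7 of them had H3K4me3 there, and in all 7 the H3K4me3 regions overlapped H3K27ac. The 2 without an H3K4me3 region were the surrogate light chain genes Vpreb2 and Igll1. None of 5 T cell markers (the CD3 chains, Cd4 and Cd8a) and none of 3 liver, muscle and nerve markers had either mark. Myeloid markers did not behave like those of T cells, since 5 of 5 had H3K27ac and 4 of 5 had H3K4me3, in regions of 75 to 775 bp. Of 4 erythroid markers, 2 had both marks, among them Klf1. No marker gene of any of these cell types was among the genes whose starts had only H3K4me3 regions without H3K27ac.

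Stretches of 5 members and of 1 region with H3K27ac are printed here, to show the range of base composition among members. They show the widest member at a protein-coding start, the widest at a lincRNA start, the widest away from any start, the member under the highest Pax5 peak, and the member at Foxc1, a forkhead transcription factor of early development. The region of Cd79a, a signalling chain of the B cell receptor, is the one with H3K27ac. Capitals mark CpG dinucleotides. All are on the plus strand of mm9 (NCBIM37), up to 300 bases from the middle of the region, moved or shortened where an annotated UTR lies in the middle.
Efna5, chr17:63231214-63231513, 22 CpG: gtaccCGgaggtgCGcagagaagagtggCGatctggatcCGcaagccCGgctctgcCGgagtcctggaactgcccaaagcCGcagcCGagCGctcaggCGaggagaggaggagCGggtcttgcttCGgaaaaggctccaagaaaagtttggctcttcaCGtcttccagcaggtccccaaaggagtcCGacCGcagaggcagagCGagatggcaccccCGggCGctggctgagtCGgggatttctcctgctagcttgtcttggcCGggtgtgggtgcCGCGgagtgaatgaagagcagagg
Gm13261 and Sfmbt2, chr2:10294936-10295235, 7 CpG: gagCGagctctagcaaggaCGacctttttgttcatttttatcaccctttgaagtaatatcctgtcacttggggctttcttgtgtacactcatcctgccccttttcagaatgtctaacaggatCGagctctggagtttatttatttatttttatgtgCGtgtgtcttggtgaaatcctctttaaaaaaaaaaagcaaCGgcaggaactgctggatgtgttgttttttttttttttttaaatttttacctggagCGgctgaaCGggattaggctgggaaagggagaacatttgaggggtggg
intergenic, chr17:39981564-39981863, 36 CpG: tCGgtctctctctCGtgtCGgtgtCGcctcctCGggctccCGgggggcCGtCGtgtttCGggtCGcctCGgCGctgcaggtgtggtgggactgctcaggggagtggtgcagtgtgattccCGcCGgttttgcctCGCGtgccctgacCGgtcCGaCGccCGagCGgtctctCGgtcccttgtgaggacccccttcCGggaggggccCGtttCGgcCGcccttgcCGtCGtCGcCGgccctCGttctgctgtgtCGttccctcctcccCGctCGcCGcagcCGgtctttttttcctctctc
exon of 1700008O03Rik, chr7:51615330-51615412, 7 CpG in 83 bases: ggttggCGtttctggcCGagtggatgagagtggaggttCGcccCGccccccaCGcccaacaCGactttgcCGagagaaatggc
Foxc1, chr13:31898215-31898514, 33 CpG: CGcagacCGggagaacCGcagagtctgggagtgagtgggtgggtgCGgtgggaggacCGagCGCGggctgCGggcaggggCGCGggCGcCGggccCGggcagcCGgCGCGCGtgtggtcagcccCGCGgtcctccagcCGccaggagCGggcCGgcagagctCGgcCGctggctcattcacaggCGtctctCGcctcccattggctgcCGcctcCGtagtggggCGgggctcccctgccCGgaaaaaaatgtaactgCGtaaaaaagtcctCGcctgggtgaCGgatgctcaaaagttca
Cd79a, with H3K27ac, chr7:25683980-25684279, 6 CpG: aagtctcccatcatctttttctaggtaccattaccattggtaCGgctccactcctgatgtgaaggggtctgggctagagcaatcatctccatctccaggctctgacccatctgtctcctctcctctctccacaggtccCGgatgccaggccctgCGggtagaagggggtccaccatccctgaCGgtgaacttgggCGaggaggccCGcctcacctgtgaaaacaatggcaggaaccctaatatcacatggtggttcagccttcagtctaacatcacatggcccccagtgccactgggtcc

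The Efna5, Foxc1 and intergenic stretches held 22 to 36 CpG in 300 bases, against 6 at Cd79a. Cd79a is not typical of regions with H3K27ac, which at starts had a median of 23 CpG in the middle 300 bases, against 27 for members at starts. The stretch at Gm13261 and Sfmbt2 was CpG-poor like that of Cd79a, with 41.0% GC. The Foxc1 stretch ends at the base before the annotated start. Foxc1 was added to this set after its values were seen, and the Cd79a window reaches from an intron into a coding exon.

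Members were narrow. Their median width was 375 bp, with the middle 50% between 125 and 825 bp, against a median of 1200 bp for the 14329 regions with H3K27ac. Of the members, 352 (9.64%) were a single 25 bp bin, against 2.92% of the regions with H3K27ac. The members covered 1.98 Mb and the other regions 17.8 Mb. The H3K4me3 list has no score, so whether narrow members had a weaker signal was not tested.

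The share of regions without H3K27ac fell with width. It was 43.8% of the regions of 25 to 75 bp (708 of 1617) and 40.9% of those of 100 to 175 bp. It was 36.0% at 200 to 475 bp and 27.7% at 500 to 975 bp. Beyond 1000 bp the share dropped steeply, to 8.53% at 1000 to 1975 bp (600 of 7031) and 2.00% at 2000 bp or more (46 of 2302). The plot of regions by width shows both the counts and these shares.

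**Figure D1:**
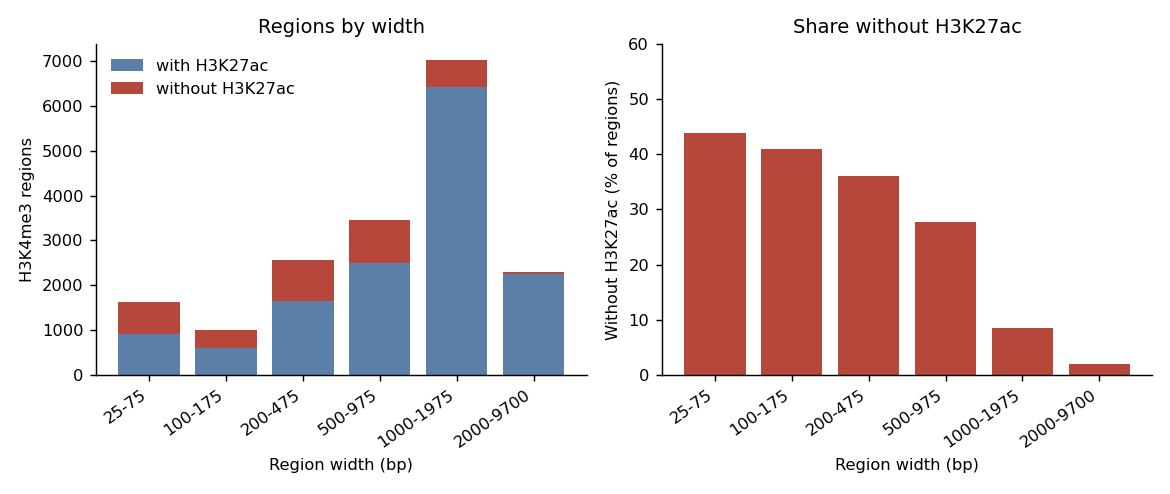
H3K4me3 regions by width in bp. Left, number of regions with (blue) and without (red) H3K27ac, stacked; right, the share without H3K27ac in percent. The share falls from 43.8% in the narrowest class to 2.00% in the widest.

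A few members were long. The widest, 4575 bp at chr17:63229077-63233651, lies over the start of Efna5, which encodes a cell surface ligand of Eph receptors, 16697 bp from the nearest H3K27ac peak and without Pax5. The next was 3875 bp at Lphn2, an adhesion G protein-coupled receptor. After it came a region of 3675 bp at chr17:39979877-39983551, intergenic in that it overlapped no gene of the annotation used. That region had 36 CpG in its middle 300 bases, no annotated start within 1000 bp and no H3K27ac peak within 959767 bp. The alignment kept reads with up to 3 equally good positions, and whether the reads here aligned uniquely was not tested. Whether this sequence has further copies in the genome, whose reads could gather here, was not tested either. A region of 3600 bp at Igf1r, the receptor of insulin-like growth factor 1, and one of 2975 bp at Gata3, the transcription factor of T helper 2 cells, completed the 5 widest.

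The members just inside and just outside the rule differed by single bases. At the inside edge, 4 members abutted an H3K27ac peak with no shared base, among them a 225 bp region in an intron of Fam129a and a 400 bp region at the start of Arrdc4. At the outside edge, a 1325 bp region at 2510039O18Rik shared 1 bp with a peak and was therefore counted as having H3K27ac. In all, 521 regions with H3K27ac shared under 50 bp with it and 2792 shared less than 50% of their width.

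Most members nevertheless lay more than 1000 bp from acetylation. The distance from arbitrary positions to a peak was not computed, so these values have no baseline. The median distance to the nearest H3K27ac peak was 15640 bp, with the middle 50% between 3348 and 49077 bp. Within 100 bp of a peak were 4.68% of the members, within 1000 bp 17.3% (630) and within 10000 bp 41.2%. At the far end, 418 members (11.5%) were more than 100000 bp from any H3K27ac peak. An H3K4me3 region that did overlap H3K27ac lay within 1000 bp of 436 members (11.9%).

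Members at transcript starts were farther from H3K27ac than those elsewhere, with medians of 18243 and 10487 bp. The 5 most distant were a region of 1075 bp at Dsel, 4280366 bp from the nearest peak, 2 regions of 25 and 125 bp at Pcdh7, 1 of 525 bp at Pcdh17 and 1 of 125 bp at Epha7. Pcdh7 and Pcdh17 encode protocadherins, which are adhesion molecules, and Epha7 an Eph receptor. The 2 Pcdh7 regions are neighbours, 3615349 and 3615099 bp from H3K27ac. The cumulative plot of distances shows the early rise of members away from starts.

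**Figure D2:**
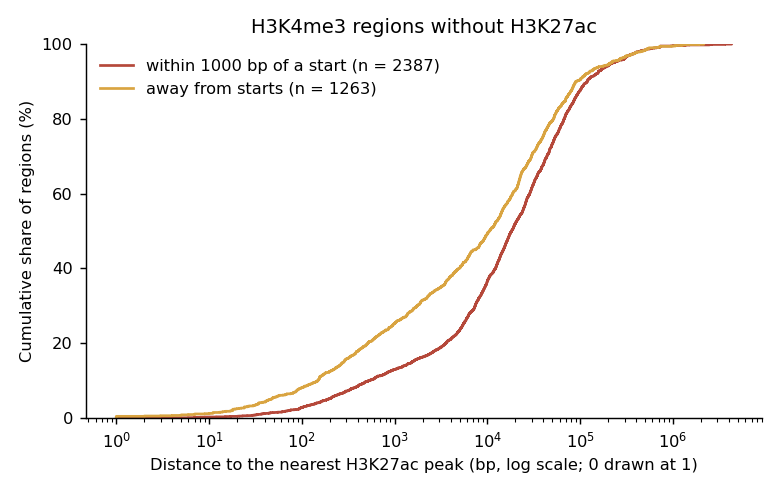
Cumulative share of members in percent against distance to the nearest H3K27ac peak in bp (log axis, 0 drawn at 1), for the 2387 members within 1000 bp of a transcript start (red) and the 1263 away from starts (yellow). The curves cross 50% at 18243 and 10487 bp, and 13.0% and 25.3% of the members lie within 1000 bp of a peak.

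The members close to a peak differed from the rest in width, place and sequence. The 630 within 1000 bp of H3K27ac had a median width of 125 bp, 49.2% were at a start and 27.6% were CpG-rich, meaning at least 50% GC and an observed to expected CpG ratio of at least 0.6 in the middle 300 bp. The 3020 farther away had a median width of 475 bp, 68.8% were at a start and 69.1% were CpG-rich. Neither distance nor width is independent of the rule, since a wider region has more bases that a peak can touch.

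At transcript starts, members were present in nearly the same share as other regions. Over all regions 69.3% lay within 1000 bp of an annotated start, against 65.4% of the members (2387 of 3650) and 70.3% of the regions with H3K27ac. The start itself lay inside 40.3% of the members and 64.3% of the others. This small difference was turned by width: in each class under 1000 bp, members were more often at a start than regions with H3K27ac. The shares were 47.2% against 24.3% at 25 to 75 bp, 49.6% against 20.4% at 100 to 175 bp, 57.1% against 23.9% at 200 to 475 bp and 76.0% against 52.4% at 500 to 975 bp. At 1000 to 1975 bp both were 91.5%, and at 2000 bp or more they were 93.5% and 95.5%. Below 500 bp, regions with H3K27ac lay mostly away from starts, while members lay at a start about as often as not.

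The difference over all widths also turned with the definition of overlap. With H3K27ac required over at least 50% of a region, 74.8% of the regions without it were at a start, 8.44 percentage points more than of the regions with it, where the rule as given had a difference of -4.95 points. Away from starts, 181 members (4.96%) touched an exon, 418 (11.5%) lay in introns and 664 (18.2%) between genes. The median widths of these were 325, 125 and 275 bp, against 575 bp at starts.

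Pax5, the factor that commits cells to the B lineage, was found less often at members. A Pax5 peak overlapped 765 members (21.0%) and 8748 regions with H3K27ac (61.1%), where the share over all regions was 52.9%. The Pax5 peaks at members also had lower scores, with a median of 179 against 266 in the peak caller's own unit. The lowest score in the whole Pax5 list was 87.87, so scores near it belong to the weakest peaks called. At transcript starts the shares were 24.5% and 71.0%, and away from starts 14.2% and 37.5%.

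The difference was also present at equal width. In the narrowest class Pax5 overlapped 8.76% of the members and 30.7% of the others, and at 500 to 975 bp 24.5% and 43.0%. At 1000 to 1975 bp the shares were 43.5% and 73.0%, and at 2000 bp or more 73.9% (34 of 46) and 88.1%. In all 6 width classes the share with Pax5 was lower in members. The plot by width class shows both this and the opposite order for transcript starts.

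**Figure D3:**
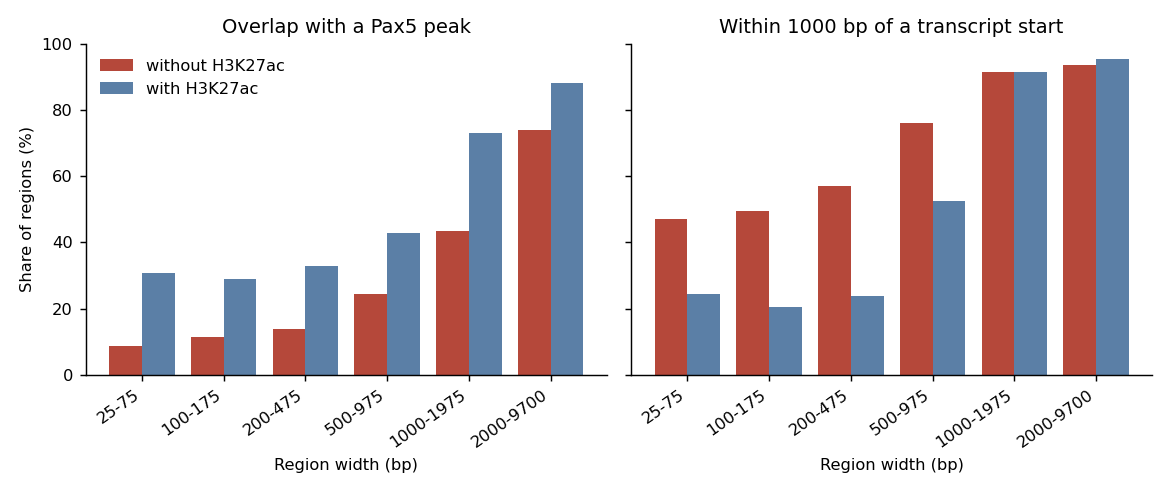
Share of H3K4me3 regions in percent that overlap a Pax5 peak (left) or lie within 1000 bp of a transcript start (right), by width in bp, without (red) and with (blue) H3K27ac. Members overlap Pax5 less often in all 6 classes (8.76% to 73.9%, against 29.0% to 88.1%) and are more often at a start in the 4 classes below 1000 bp.

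Members with Pax5 were wider and richer in CpG than members without it. Their median width was 850 bp, 76.6% were at a start and 81.2% were CpG-rich. In the 2885 members without Pax5 the median width was 325 bp, 62.4% were at a start and 56.8% were CpG-rich. The highest Pax5 score at a member, 2920, belonged to a 300 bp region in an exon of 1700008O03Rik, whose first 83 bases are printed above. It lay 48 bp from an H3K27ac peak.

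By base composition, members were more often CpG-rich than regions with H3K27ac (61.9% against 53.6%). At starts the shares were 76.6% and 71.0%. Away from starts the difference was wider, with 34.1% of the members and 12.4% of the others CpG-rich. At equal width it was wide too, with 31.4% against 3.08% at 25 to 75 bp, 54.9% against 7.00% at 200 to 475 bp and 92.3% against 78.2% at 1000 to 1975 bp. Members in exons away from starts were CpG-rich in 66.9% of cases, those in introns in 22.0%. The distributions of the CpG ratio lie nearly on each other at starts and apart elsewhere.

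**Figure D4:**
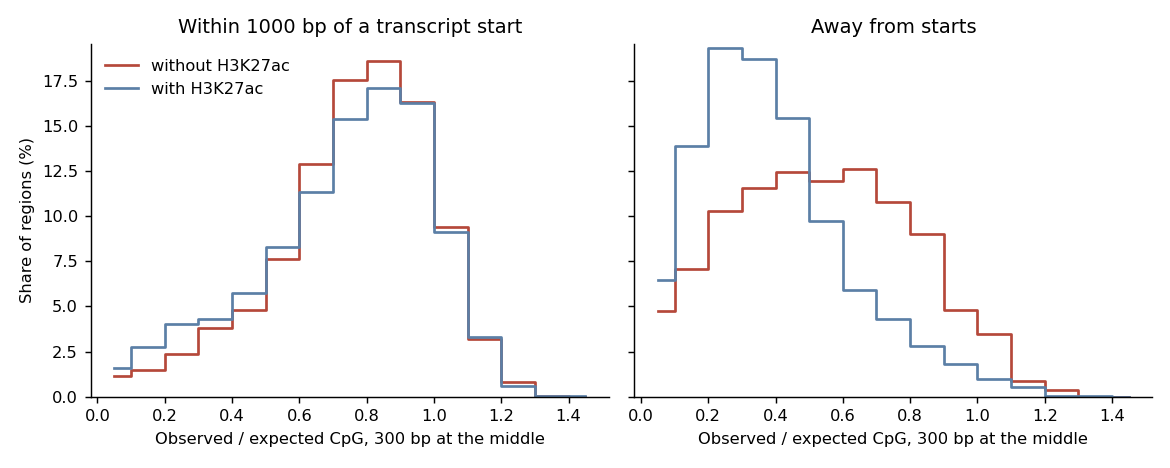
Share of regions in percent by observed to expected CpG ratio of the middle 300 bp, in steps of 0.1, within 1000 bp of a transcript start (left) and away from starts (right), without (red) and with (blue) H3K27ac. At starts both peak at 0.8 to 0.9; away from starts regions with H3K27ac peak at 0.2 to 0.3 with 19.3%, while members spread broadly, with 12.6% at 0.6 to 0.7.

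Short letter matches were then counted on both strands of 300 bp windows, chosen after the composition had been seen. At protein-coding genes the window ran from 250 bp before to 50 bp after the outermost start. The ETS letters CCGGAAG, bound by ETS factors such as GABP, were in 6.40% of the windows of genes with only members (110 of 1718), in 20.7% of those of genes with only H3K27ac-marked regions, in 2.35% of those of genes with no H3K4me3, and in 10.8% of all. Among CpG-rich windows alone the shares were 7.32%, 24.9% and 4.12%. The CpG-rich share itself differed little between the first 2 classes, at 65.2% and 69.4%.

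The ETS letters were also counted in the middle 300 bp of regions at starts by width. In the 3 classes under 500 bp the shares in members and other regions differed little, with 2.10% against 3.17%, 2.93% against 4.92% and 3.59% against 5.10%. They were 4.26% against 9.26% at 500 to 975 bp and 5.65% against 17.6% at 1000 to 1975 bp. At 2000 bp or more 2 of 43 members (4.65%) and 9.05% of the others held them. The NRF1 letters GCATGCGC were in 3.78% of the start windows of genes with only members and 5.74% of those with H3K27ac (3.31% of all). Other letters ran the other way or nearly level. The gapped palindrome CCCNNGGG recognised by Ebf1 was in 22.6% against 16.8% (15.1% of all), the E box CAGGTG in 21.3% against 16.3% (20% of all), and the GC box GGGCGG in 67.8% against 63.4% (43.5% of all). TATAAA was in 7.51% and 6.71% (13.5% of all), CCAAT in 33.6% and 39.3% (37.9% of all), and GTCACGC, a core of Pax5 sites, in 2.10% and 4.31% (2.59% of all). None of these strings contains another, although their matches can overlap. A match to these letters is a description of sequence and not a bound site.

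At the gene level, 1980 of 13391 genes with H3K4me3 within 1000 bp of a start had only regions without H3K27ac there (14.8%). Another 11033 had only regions with H3K27ac, and 378 had both kinds. Among protein-coding genes 1718 of 11807 had only members (14.6%). A Pax5 peak overlapped a region at the start of 28.7% of the genes with only members and 76.1% of those with only H3K27ac-marked regions. In 167 of the 1980 genes (8.43%) an H3K27ac peak lay within 1000 bp of a start without touching the H3K4me3 region.

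Among other gene classes, 113 of 668 lincRNA genes (16.9%), 25 of 130 miRNA genes (19.2%) and 28 of 116 pseudogenes (24.1%) with H3K4me3 had only members. Small nucleolar RNA genes, which mostly lie in introns of highly transcribed host genes, had only members in 2 of 130 cases. The widest lincRNA regions were 2475 bp at Gm13261, shared with Sfmbt2, 2325 bp at A930024N18Rik, shared with Dll1, a Notch ligand, and 2250 bp at Gm15663, shared with Tmtc2. All 3 overlapped Pax5, with scores of 213, 284 and 169.

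The 10 protein-coding genes with the widest members were Efna5, Lphn2, Igf1r, Gata3, Tmem57, Chd7, Bmi1, Lonrf3, Tmem132e and Sfmbt2, with regions of 2475 to 4575 bp. Chd7, a nucleosome remodeller, had 2550 bp with 52 CpG in the middle 300 bases, and Bmi1, a subunit of Polycomb repressive complex 1, had 2525 bp with 47 CpG, 2737 bp from H3K27ac. Sfmbt2, a Polycomb group protein with MBT repeats, had 2475 bp. This region lies inside Sfmbt2, past its 5′ end, and over the start of the lincRNA gene Gm13261. Neither Chd7 nor Bmi1 overlapped Pax5, while Igf1r did with a score of 285 and Tmem57 with 415, the highest of the 10.

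Gene lists were described by how many of the genes with H3K4me3 had only members, beside the 14.8% over all genes. They were chosen with earlier results of these data known and get no test. Transcription factors of development stood highest among lists of more than 10 such genes. Only 18 of 76 had any H3K4me3, and 16 of these 18 (88.9%) had only members. The count was 13 when regions under 200 bp were left out. Foxc1 had 1575 bp, 15354 bp from H3K27ac. Dlx1, which acts in forebrain interneurons, had 750 bp and was the single one of the 16 with a Pax5 peak, with a score of 113. The Dlx1 region lies inside the gene and not at its 5′ end. Taking the widest region of each, the median width over the 16 genes was 400 bp (25 to 1575 bp). The median of all members at starts was 575 bp.

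Signalling genes followed. Of 24 Wnt, Frizzled, Bmp and Fgf ligand and receptor genes with H3K4me3 (of 69), 18 had only members (75%). Their median width was 975 bp, and 6 of these 18 overlapped Pax5. The count was 16 when regions under 200 bp were left out. The widest was at Fzd4, a Wnt receptor (2075 bp, Pax5 score 87.9, shared with Tmem135). Next came Fgf13 (1925 bp), Fgfr2, an Fgf receptor (1725 bp, shared with Ctbp2), and Bmp1, which despite its name is a procollagen protease (1475 bp). The Fgfr2 region lies by the outermost annotated start of an entry that runs from 137305965 to 140315033 on chromosome 7. It was the widest of 3 regions at starts of this entry and had no Pax5 peak. The highest Pax5 score among the 3 regions was 169. Whether the 1725 bp region belongs to Fgfr2 or to Ctbp2 was not tested. Receptors among the 18 were Fgfr1, Fgfr2, Fgfr3, Fzd3, Fzd4, Fzd6, Fzd8, Fzd9 and Fzd10. The ligand and related genes were Bmp1, Bmp8a, Fgf9, Fgf13, Fgf18, Fgf20, Wnt5b, Wnt10a and Wnt10b.

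Genes of excitable and adherent cells were similar. Ion channels had only members in 21 of 35 genes (60%), and the count was 16 when regions under 200 bp were left out. The widest were at Cacnb2, a calcium channel beta subunit (1725 bp), and Cacna1b, the pore of N-type calcium channels (1350 bp, Pax5 score 295). Collagens and laminins had only members in 8 of 11, led by Col27a1 (1375 bp, 1232 bp from H3K27ac). Here the count was 4 when regions under 200 bp were left out. All 4 protocadherins with H3K4me3, of 36, had only members, with 125 to 1600 bp, as did 3 of 5 neuronal genes: Reln (425 bp), Syn1 (375 bp) and Gad1 (200 bp). The Col27a1 and Gad1 regions lie inside their genes and not at the 5′ end. Olfactory receptors had no H3K4me3 at any of 1113 genes.

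In the Hox clusters 9 of 39 genes had H3K4me3, and 5 of the 9 had only members, among them Hoxa9, Hoxa10, Hoxa13 and Hoxc9. Hoxa9, a factor of early blood progenitors, had 975 bp only 2301 bp from an H3K27ac peak, and Hoxc9 350 bp at 185501 bp. The Hoxa9 region lies inside the annotated gene and not at its 5′ end. Imprinted genes had only members in 4 of 8, at Peg10 (1275 bp, Pax5 score 130), Cdkn1c, a cell cycle inhibitor (375 bp, Pax5 score 180), Peg3 (275 bp) and Plagl1 (250 bp). The count of imprinted genes was 8 with H3K27ac over at least 50% of a region and 7 with the higher-scoring 50% of H3K27ac peaks. Peg3 was 346407 bp from the nearest H3K27ac peak.

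Factors of other blood lineages were a smaller set. Of 5 T cell genes with H3K4me3, Gata3 and Tcf7 had only members, of 2975 bp and 800 bp, at 168046 and 8377 bp from H3K27ac. The Gata3 region lies inside the gene, at an internal annotated start, and not at the 5′ end of the longest transcript. Of 13 myeloid genes with H3K4me3, 4 had only members, among them Cebpa (1700 bp) and Cebpb (1550 bp), bZIP factors of granulocytes and macrophages, and Prtn3, a neutrophil protease (1050 bp). Cebpb was 98 bp from an H3K27ac peak and Prtn3 1498 bp, and the count was 2 when starts were widened to 2000 bp. Beside these counts stand the myeloid markers given above, of which 5 of 5 had H3K27ac, and their part in the myeloid count was not tested.

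Other lists had few genes with only members. None of 25 B lineage genes with H3K4me3, none of 16 late B and plasma cell genes, none of 8 erythroid and megakaryocyte genes and none of 15 housekeeping genes had only members. With 8 to 25 genes each, these lists are small beside a share of 14.8% over all genes. Ribosomal protein genes had 1 of 80 (Rps4y2, with 75 bp), mitochondrial ribosomal protein genes 1 of 76 (Mrps2, with 925 bp and Pax5 score 400), histone cluster genes 1 of 59 (Hist1h2al, 139 bp from H3K27ac), aminoacyl-tRNA synthetases 1 of 37 (Aars2) and DNA repair genes 1 of 46 (Mlh3). Zfp genes had only members in 20 of 276 (7.25%), led by Zfp664 with 2250 bp. These counts rose with a stricter H3K27ac definition. With H3K27ac required over at least 50% of a region, Zfp genes had 65, mitochondrial ribosomal protein genes 13, DNA repair genes 10, and tRNA synthetases and ribosomal protein genes 6 each, and with the higher-scoring 50% of H3K27ac peaks Zfp genes had 35, mitochondrial ribosomal protein genes 4 and DNA repair genes 2. B lineage genes had 4 under the 50% overlap, late B and plasma cell genes 2, erythroid and megakaryocyte genes 2 and housekeeping genes 1. Cilium genes were near the share of all genes, with 3 of 20 (15.0%): Bbs1, Bbs5 and Bbs7, at 475 to 750 bp, and the count was 6 under the 50% overlap. Meiotic genes had 1 of 3, Dmc1, with 75 bp, 2 under the 50% overlap and 0 without regions under 200 bp.

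**Figure D5:**
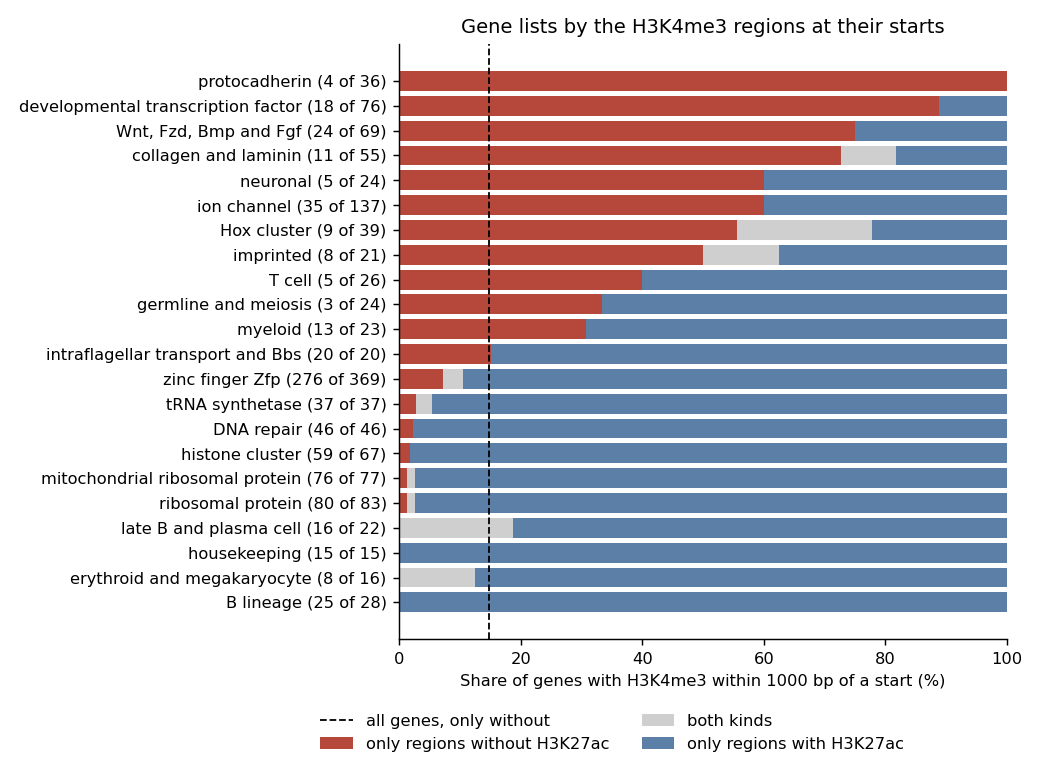
Genes of the lists with an H3K4me3 region within 1000 bp of a start, split in percent into those with only members (red), both kinds (grey) and only regions with H3K27ac (blue). In brackets stand the genes with H3K4me3 of those in the list, and the dashed line is the 14.8% of all genes; developmental transcription factors reach 88.9% and B lineage genes 0.

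Among protein-coding genes whose starts had only members, the 5 with the highest Pax5 scores were outside the developmental list. They were Nhlrc1, an E3 ubiquitin ligase (725 bp, Pax5 score 1879, 27908 bp from H3K27ac), Reep2 (75 bp, score 1853, 7 bp from H3K27ac), Spsb1, a SOCS box protein (1175 bp, score 1699, 34061 bp), D1Bwg0212e (1175 bp, score 1578, 9975 bp) and Frmd5 (600 bp, score 1375, 59232 bp). Of these 5 H3K4me3 regions the one at Reep2 stood beside acetylation and the others were 9975 bp or more from it. The distance of the Pax5 peaks themselves to H3K27ac was not computed.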

How the data were processed

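Chromatin of pre-B cells was profiled by ChIP-seq, with 1 list of calls each for H3K27ac, H3K4me3 and Pax5. Per the study's methods the authors removed duplicate reads and adapters and aligned to mm9 with Bowtie, allowing 2 mismatches and at most 3 equally good positions. The submitters' processing notes name Bowtie 0.12.9 and MACS 1.4.2, while the methods name a later Bowtie version. The peak calling settings for these marks are not given in the sources used here. For H3K27ac and Pax5 the authors deposited peaks with a score, a number from the peak caller on an unnamed scale. The deposited H3K4me3 list holds other values, namely 782636 bins of 25 bp with no score, and how they were called is not given. The inputs were not analysed here, and library depth is unknown.

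Bins were joined across gaps of up to 100 bp and overlaps of at least 1 bp were counted (Python 3.11.15, numpy 2.4.6, pysam 0.24.0), after tests on simulated intervals. Starts, exons and gene classes came from GENCODE M1 on NCBIM37, with 37094 genes after overlapping entries of 1 name were joined. Mature miRNA sequences came from RefSeq (GRCm38.p6) by symbol. A gene counted as having only members when every H3K4me3 region within 1000 bp of its starts lacked H3K27ac. Members, lists, markers and letter motifs were chosen with earlier results of these data known. Of 364 listed symbols, 6 did not match by name and were not used here. Genes were named by rule: the 10 widest, up to 4 widest per list, the 5 with the highest Pax5 score and the 3 widest lincRNA genes, with other names chosen after their values were seen. Some genes that this rule names are not reported here. Other settings changed the joining gap, the minimum width, the overlap, the peak score and the distance to a start. Exact binomial or order-statistic 95% intervals, which treat regions as independent, were used only to decide whether a value had moved.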

Additional observations from a re-analysis of the deposited data

How the results depend on the processing

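Across the settings tried, members remained narrower than other regions and overlapped Pax5 less often, while the difference in share at a start was the least stable value. Joining bins only where they touch gave 5995 members (25.8% of regions), a median width of 125 bp, a median distance of 8975 bp, Pax5 at 18.6% (-37.2 points) and a start difference of -0.76 points. A gap of 500 bp gave 18.4%, 550 bp, a width difference of -750 bp, 19470 bp and Pax5 at 22.5%. Without regions under 200 bp the values were 16.5%, 625 bp, -675 bp, 73.1% at starts (-2.86 points), 18576 bp and Pax5 at 25.9%. With H3K27ac over at least 50% of the region they were 6442 members (35.8%), 850 bp, -300 bp, 74.8% at starts, a reversed difference of 8.44 points, 400 bp to a peak, Pax5 at 39.5% (-20.9 points) and 4573 genes with only members. Counting H3K27ac within 1000 bp gave 16.8%, 475 bp, -700 bp, 68.8% at starts (-0.68 points), 23519 bp and a Pax5 difference of -38.2 points. The higher-scoring 50% of H3K27ac peaks gave 26.7%, 450 bp, a start difference of -7.07 points, 21275 bp and Pax5 at 24.6%, and the higher-scoring 50% of Pax5 peaks gave Pax5 at 9.04% (-28.4 points). Starts within 500 bp gave 59.8% (-8.63 points), within 2000 bp 71.9% (-1.65 points), and protein-coding starts alone 60%. The count of genes with only members moved by over 1.5 times in 12 of 23 lists under the 50% overlap, where 4 B lineage genes joined them, and in 0 to 5 lists under the other settings. The cause of these moves was not tested, beyond that a stricter overlap by construction puts partly acetylated regions among the members. No paired analysis was possible because there was 1 library for each list.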

Other observations

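The X chromosome held more members for its number of regions than any autosome. Without H3K27ac were 176 of its 537 H3K4me3 regions (32.8%), against 19.9% over the autosomes, with 17.1% to 22.8% on single autosomes. H3K27ac peaks themselves were sparse on X, at 5.55 per Mb against 18.4 to 44.3 on autosomes. H3K4me3 regions were sparse there too, at 3.22 per Mb against 4.94 to 12.5. Members per Mb were within the range of the autosomes, at 1.06 on X against 0.933 on chromosome 1 and 2.45 on chromosome 11. Among protein-coding genes with H3K4me3, 77 of 362 on X had only members (21.3%), against 14.3% on autosomes. The labels give mice of both sexes, and the share of cells from each is not known.

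Several miRNA genes had only members at their start. Of 25 such genes, 8 matched RefSeq by symbol, and 3 of these were picked after their values were seen. Mir132 and Mir212, neighbours on chromosome 11, shared 1 region of 875 bp (chr11:74986571-74987445) with a Pax5 score of 303, 4333 bp from H3K27ac. Mir203, known from skin, had 1075 bp (chr12:113368136-113369210), 94088 bp from H3K27ac and without Pax5. Their mature 3p arms are given 5′ to 3′ with the seed (bases 2 to 8) in capitals, and the arms of Mir132 and Mir212 have the same seed.
mmu-miR-132-3p: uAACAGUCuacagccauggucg
mmu-miR-212-3p: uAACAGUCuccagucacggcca
mmu-miR-203-3p: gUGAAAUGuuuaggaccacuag

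Of 355 genes annotated as IG_V genes (antigen receptor V segments), only 18 had H3K4me3 at a start. Of these 18, 6 had only members (33.3%), beside 14.8% over all genes, and the set is small. The widest were Igkv2-109 on chromosome 6 (1425 bp, 30195 bp from H3K27ac), Gm7175 on chromosome 12 (1225 bp, 24600 bp) and Gm13909 on chromosome 14 (625 bp, 32688 bp). Igkv6-25 had 150 bp, and Igkv2-116 and Igkv6-23 had 100 bp each. At 1 of the 6 genes (16.7%) an H3K27ac peak lay within 1000 bp of a start. None of the 6 had a Pax5 peak at the region. The middle 300 bases of Igkv2-109 and Igkv2-116 held 0 CpG, and the others 1 to 3, unlike most members at starts. These genes were named after their values were seen.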
